A study of Mus musculus with 12 samples.

Results

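The genes described here are 10 components of the basement membrane, taken by name from 25655 genes in each of 2 deposited tables, and all 10 were found in both. They are the laminin chain genes Lama2, Lama4, Lamb1 and Lamc1, the collagen IV chain genes Col4a1 and Col4a2, the nidogen genes Nid1 and Nid2, the perlecan gene Hspg2 and the collagen XVIII gene Col18a1. All 10 carry the gene ontology term basement membrane in the tables, which they share with 105 other genes. The study sequenced the 3' ends of mRNA from PDGFRα+ mesenchymal cells of skeletal muscle and bone, sorted from female mice, with 3 samples in each of 4 groups. Its stated purpose was to find genes that Esr1, the estrogen receptor alpha gene, acts on in muscle PDGFRα+ cells and that bear on bone metabolism.

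The muscle knockout group held 3 samples of genotype PDGFRα-CreER;Esr1flox/flox. Its control group held 2 samples of genotype PDGFRα-CreER and 1 of genotype PDGFRα-CreER;Esr1flox/+. In bone, the 3 knockout samples were likewise PDGFRα-CreER;Esr1flox/flox, and the control group held 2 PDGFRα-CreER samples and 1 Esr1flox/flox sample without the Cre. CreER is a recombinase that tamoxifen activates, and PDGFRα-CreER places it in cells that use the Pdgfra gene. The muscle gate was PDGFRα+, CD45-, CD31-, Vcam1-, and the bone gate was PDGFRα+, CD45-, CD31-. The labels give neither the animals' age nor the induction schedule, and do not say whether samples came from separate animals, so part of the spread behind a p may be technical.

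A basement membrane is a thin sheet of matrix that underlies epithelia and endothelia and wraps muscle fibres, fat cells and Schwann cells. Laminins, trimers of an alpha, a beta and a gamma chain, form a network at the cell surface, and collagen IV forms another that gives the sheet its strength. Nidogens and the proteoglycan perlecan bind both networks. In skeletal muscle much of the collagen IV and nidogen around the fibres is made by the mesenchymal cells between them.

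Values per library are not given here, because the library columns carry codes that match no sample label. Each gene therefore has, per tissue, the log2 fold change of knockout over control, its p, its FDR p and the larger of the 2 group means, all from the authors' deposited table. The unit of that mean is not named in its header, and the depth of each library is unknown here. A gene counted as called at an FDR p under 0.05. Intervals below are approximate 95% intervals that the deposited fold change and p imply on a normal approximation. In bulk samples fewer cells of a type and less RNA per cell cannot be told apart.

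Col4a1 and Col4a2 encode the chains that join in the most widespread collagen IV trimer, and their genes stand head to head on chromosome 8. Col4a1 runs on the minus strand from 11198423 to 11312826 and Col4a2 on the plus strand from 11312805 to 11449287 (GRCm38, GENCODE M21), so the genes overlap by 22 bases at their starts. The 2 windows below, from RefSeq on GRCm38.p6, show this shared start region, because the pair is the one place where the start regions of 2 members overlap. Each runs 5′ to 3′ on its gene's own strand, from 250 bases before to 50 bases after the gene's start, at chr8:11312777-11313076 (minus strand) for Col4a1 and chr8:11312555-11312854 (plus strand) for Col4a2. Capitals mark the 78 bases that both windows hold, as reverse complements of each other.
Col4a1: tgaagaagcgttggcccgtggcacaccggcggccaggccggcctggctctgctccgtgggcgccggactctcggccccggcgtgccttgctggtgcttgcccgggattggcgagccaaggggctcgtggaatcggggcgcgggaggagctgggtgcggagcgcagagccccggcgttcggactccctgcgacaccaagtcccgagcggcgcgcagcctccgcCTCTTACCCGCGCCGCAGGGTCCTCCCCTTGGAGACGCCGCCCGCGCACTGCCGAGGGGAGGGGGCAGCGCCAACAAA
Col4a2: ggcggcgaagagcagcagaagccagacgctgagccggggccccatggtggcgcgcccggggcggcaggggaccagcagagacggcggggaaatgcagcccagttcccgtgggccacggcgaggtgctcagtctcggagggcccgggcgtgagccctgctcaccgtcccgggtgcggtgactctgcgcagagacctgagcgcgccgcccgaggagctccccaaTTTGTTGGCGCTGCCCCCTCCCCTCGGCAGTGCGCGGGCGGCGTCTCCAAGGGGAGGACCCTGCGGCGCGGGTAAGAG
G and C made up 74.0% of the Col4a1 window and 73.7% of the Col4a2 window.

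RefSeq windows of this length matched 7 of the 10 members, with 8 windows in all, and Nid2, Lama4 and Lamc1 had no match. Motifs were searched as letters on both strands. The GC box GGGCGG stood in 7 of the 8 windows, against 35.7% of all 32851 windows, and the CCAAT box CCAAT in 5 of 8, against 37.4%. The 8 windows are not independent, since those of Col4a1 and Col4a2 share 78 bases that hold a GC box. The TATA box TATAAA stood in 0 of 8, against 13.6%. The estrogen response element, searched as GGTCA, any 3 bases, then TGACC, stood in 0 of 8, against 0.07% of all windows. The half-site AGGTCA, which can overlap the full element, stood in 0 of 8, against 16.3%. A match of letters is a description of the window and not a site of binding.

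The targeted gene did not pass in either tissue. By the authors' deposited tables the log2 fold change of Esr1 was 1.02 for muscle (p = 0.404) and -2.69 for bone (p = 0.245). Which exons are floxed is not stated, so a 3' tag does not check the genotype. Esr1 lies on chromosome 10 (4611593 to 5005614), as do Lama2, Lama4 and Col18a1 at gaps of 22.0, 34.0 and 72.0 Mb from it.

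In muscle none of the 10 members was called, and 8 of 10 had a fold change above 0 in the authors' deposited table. Of all 7107 muscle genes with an FDR p, 0.127% were called, and 9 of the members were among those tested. The authors' test, whose name no source used here gives, put 1 member at an unadjusted p under 0.05 with a higher value in the knockout, where 6.41% of all 13158 genes with a p stood, and none with a lower value, where 5.31% stood. The members' median log2 fold change was 0.58, against 0.12 over all genes with a p by the authors' deposited table. Of those genes 53.5% were above 0, and of the 3149 with a group mean above 50, where 9 of the members lie, 1573 were, with a median of 0.00.

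**Figure D1:**
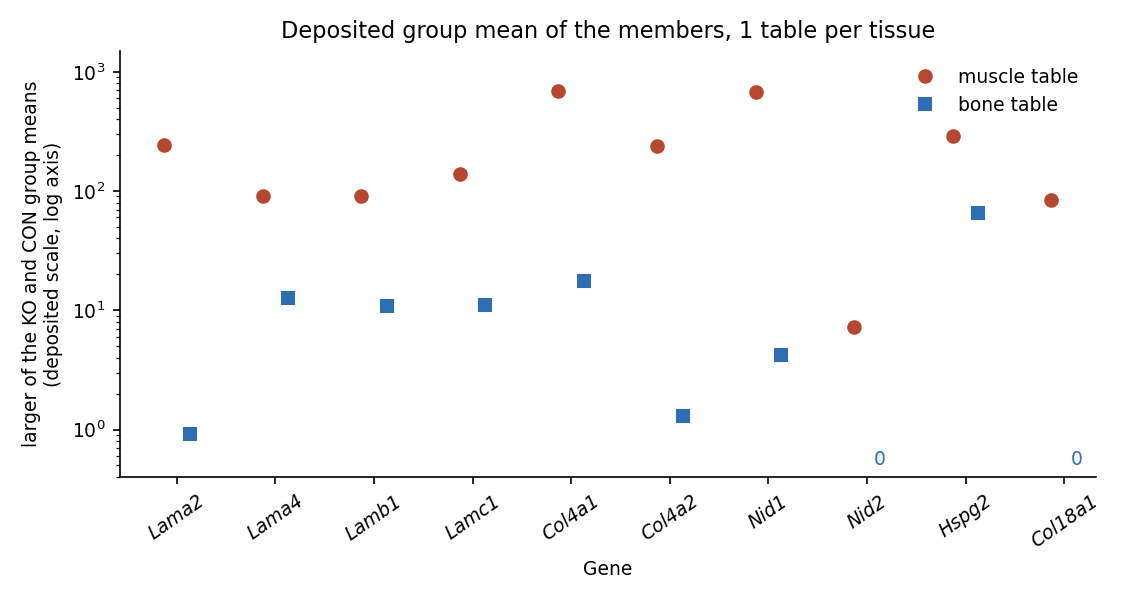
Larger of the knockout and control group means of each member (y axis, log scale, unit not named in the deposited tables) by gene (x axis), with circles for the muscle table and squares for the bone table, 2 separate tables whose normalisation is not stated. Of the muscle values, 9 members lie between 83.9 and 688 and Nid2 at 7.19, and in the bone table Hspg2 lies at 65.0, Nid2 and Col18a1 are listed at 0 and the others lie between 0.921 and 17.6.

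The laminin chains did not share a direction in muscle. Lama2 encodes the alpha 2 chain of the muscle fibre laminin, the chain lost in a human congenital muscular dystrophy. It lies on chromosome 10 from 26980036 to 27619758. The authors' deposited table gave Lama2 a log2 fold change of -0.24 (p = 0.593) at a larger group mean of 244, and its interval ran from -1.11 to 0.64. Lama4, the alpha 4 chain found in the walls of small vessels and around fat cells, lies on the same chromosome from 38965515 to 39110188. Its log2 fold change in the authors' deposited table was 1.24 (p = 0.126) at a larger group mean of 91.1, with an interval from -0.35 to 2.82. The 2 alpha chains had opposite signs and overlapping intervals, and their difference was not tested.

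Lamb1 and Lamc1 encode the beta 1 and gamma 1 chains, which both alpha chains use. Lamb1, on chromosome 12 from 31265234 to 31329644, was at -0.11 (p = 0.863) on the log2 scale in the authors' deposited table, with a larger group mean of 90.8. Lamc1, on chromosome 1 from 153218922 to 153332786, had 0.29 (p = 0.589) at 139 in the authors' deposited table. Their intervals, -1.31 to 1.10 for Lamb1 and -0.76 to 1.34 for Lamc1, both include 0.

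The collagen IV pair had nearly the same fold change in muscle. In the authors' deposited table Col4a1 had a log2 fold change of 0.49 (p = 0.127) at a larger group mean of 688, which is 1.4-fold on a linear scale. Col4a2 had 0.52 (p = 0.247) at 239 in the authors' deposited table, or 1.43-fold. The intervals were -0.14 to 1.11 for Col4a1 and -0.36 to 1.40 for Col4a2. Neither gene passed, and both FDR p were 1.00 after rounding, a value that 6370 muscle genes share in the authors' deposited table.

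Nid1 had the smallest p of the 10 members in muscle. It encodes nidogen 1, which bridges laminin and collagen IV, and lies on chromosome 13 from 13437551 to 13512269. The authors' deposited table gave it a log2 fold change of 0.70, or 1.63-fold, with p = 0.0355 and FDR p = 0.738 at a larger group mean of 671. Its interval ran from 0.05 to 1.36, and 1104 muscle genes had a smaller p. Its paralog Nid2, on chromosome 14 from 19751265 to 19811787, had 1.56 in the authors' deposited table (p = 0.472) at a larger group mean of 7.19 and was given no FDR p. The Nid2 interval, -2.69 to 5.81, is too wide to set it beside Nid1.

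The proteoglycan members had positive values that did not pass. Hspg2 encodes perlecan, which carries heparan sulfate chains that hold growth factors, and lies on chromosome 4 from 137468769 to 137570630. Its log2 fold change in the authors' deposited table was 0.64 (p = 0.172) at a larger group mean of 289, with an interval from -0.28 to 1.55. Col18a1 encodes collagen XVIII, a heparan sulfate proteoglycan whose end fragment is endostatin, and lies on chromosome 10 from 77052178 to 77166548. By the authors' deposited table it was at 1.55 (p = 0.0710, FDR p = 0.910), with a larger group mean of 83.9 and an interval from -0.13 to 3.23. Col18a1 had the second smallest p of the members.

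**Figure D2:**
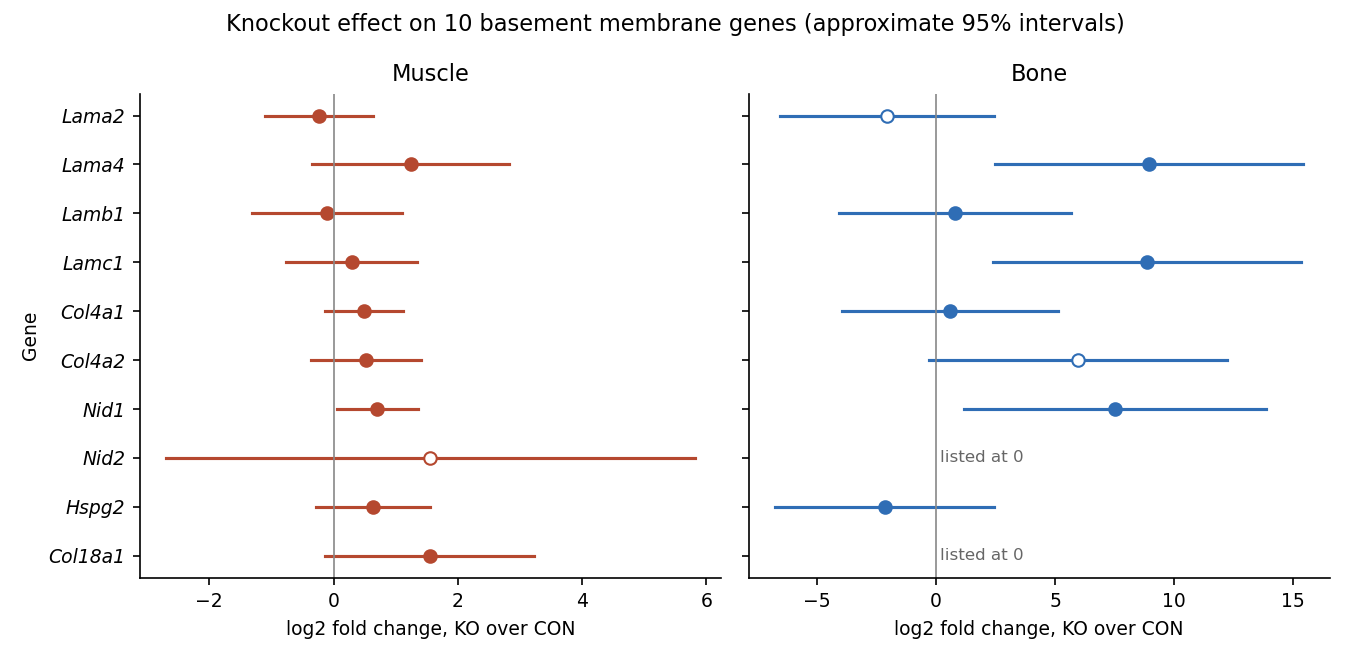
Log2 fold change of knockout over control (x axis) of each member (y axis) in muscle (left) and bone (right), with points for the deposited values, lines for approximate 95% intervals and open points for genes with no FDR p. The x axes differ. In muscle the interval of Nid1 alone excludes 0, and in bone those of Lama4, Lamc1 and Nid1 do, none of them with an FDR p under 0.05.

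Other genes overlap the ends of some members, and whether reads were counted by strand is not stated. Within 1000 bases of the 3' end, the antisense gene Gm15418 overlaps Col4a1, Gm48084 overlaps Lama2, Slc19a1 overlaps Col18a1 and Rtraf overlaps Nid2, each on the opposite strand. Slc19a1, a folate transporter gene, was at 5.32 on the log2 scale (p = 0.0294) for muscle in the authors' deposited table, with a larger group mean of 8.06. Rtraf had -0.56 (p = 0.326) at 145 in the authors' deposited table. In muscle Col18a1 was at 83.9 and Nid2 at 7.19. Since counting by strand is not stated, whether reads of one gene of a pair were counted to the other is unknown here.

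In bone none of the 10 members was called either, and 2 could not be tested. Nid2 and Col18a1 are listed at 0 in bone by the authors' deposited table. Of the 8 members with a p, 6 had an FDR p, and of all 8534 bone genes with one 0.0352% were called. The authors' test put 3 of 8 members at an unadjusted p under 0.05 with a higher value in the knockout, where 28.8% of all 10518 genes with a p stood, and none with a lower value, where 4.2% stood. At an FDR p under 0.1, 3 of the 6 members passed, against 32.2% of all bone genes with an FDR p. By sign, 6 of 8 members were above 0, against 69.7% of the 10518 bone genes with a p. The members' median log2 fold change was 3.38, against 2.51 over all bone genes with a p in the authors' deposited table. No member lay near that median, since each value was at 0.80 or below or at 5.97 or above.

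The 3 members of smallest p in bone were Lama4, Lamc1 and Nid1. In the authors' deposited table Lama4 had a log2 fold change of 8.94 (p = 0.00688, FDR p = 0.0784) at a larger group mean of 12.6. Lamc1 had 8.87 (p = 0.00707, FDR p = 0.0784) at 11.0 in the authors' deposited table, and 1253 bone genes share that FDR p. Nid1 had 7.52 (p = 0.0204, FDR p = 0.0863) at 4.21 in the authors' deposited table. Their intervals ran from 2.46 to 15.42, 2.41 to 15.32 and 1.16 to 13.87, each over 10 log2 units wide.

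These 3 values, and that of Col4a2, lie on a common edge of the bone table. In the authors' deposited table Col4a2 was at 5.97 (p = 0.0616, no FDR p), with a larger group mean of 1.31. The log2 fold change minus the log2 of the larger group mean came to 5.29 for Lama4, 5.41 for Lamc1, 5.44 for Nid1 and 5.57 for Col4a2. This difference lay between 5 and 6 for 4128 of the 10518 bone genes with a p (39.2%), and above 6 for none. Among these genes the fold change follows the group mean, so the order of the 4 members by fold change is the order of their means. On a linear scale the fold changes were 490 for Lama4, 467 for Lamc1, 183 for Nid1 and 62.5 for Col4a2, each higher in the knockout. If each is the plain ratio of the knockout mean to the control mean, the control means of these 4 members lay near 0. Whether the fold change is that ratio is not stated, and the deposited comparison does not list the control mean itself. In muscle no gene had a difference between 5 and 6, and the members' differences ran from -8.94 to -1.29. These bounds fit the bone table, and an edge at a lower difference in muscle was not searched for. Some muscle genes off the member list also had large values at low means, such as Lamc3 (6.23 at 3.84), Col4a6 (5.72 at 2.72) and Kdr (7.88 at 11.9). Others lay as far below 0 at low means, such as Egfl7 (-8.46 at 16.8), Myod1 (-7.75 at 10.3) and Frem1 (-7.34 at 7.73).

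Many bone genes of like group mean had such values. Of 3094 bone genes whose larger group mean was above 5 and up to 20, where Lama4, Lamc1, Lamb1 and Col4a1 lie, 51.0% had a fold change above 0 with an unadjusted p under 0.05, and the median was 4.90. Of 2255 genes above 1 and up to 5, where Nid1 and Col4a2 lie, 50.5% did, with a median of 6.24. Among the 1653 genes above 50 the share was 2.6% and the median -0.20, and Hspg2 lies there.

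**Figure D3:**
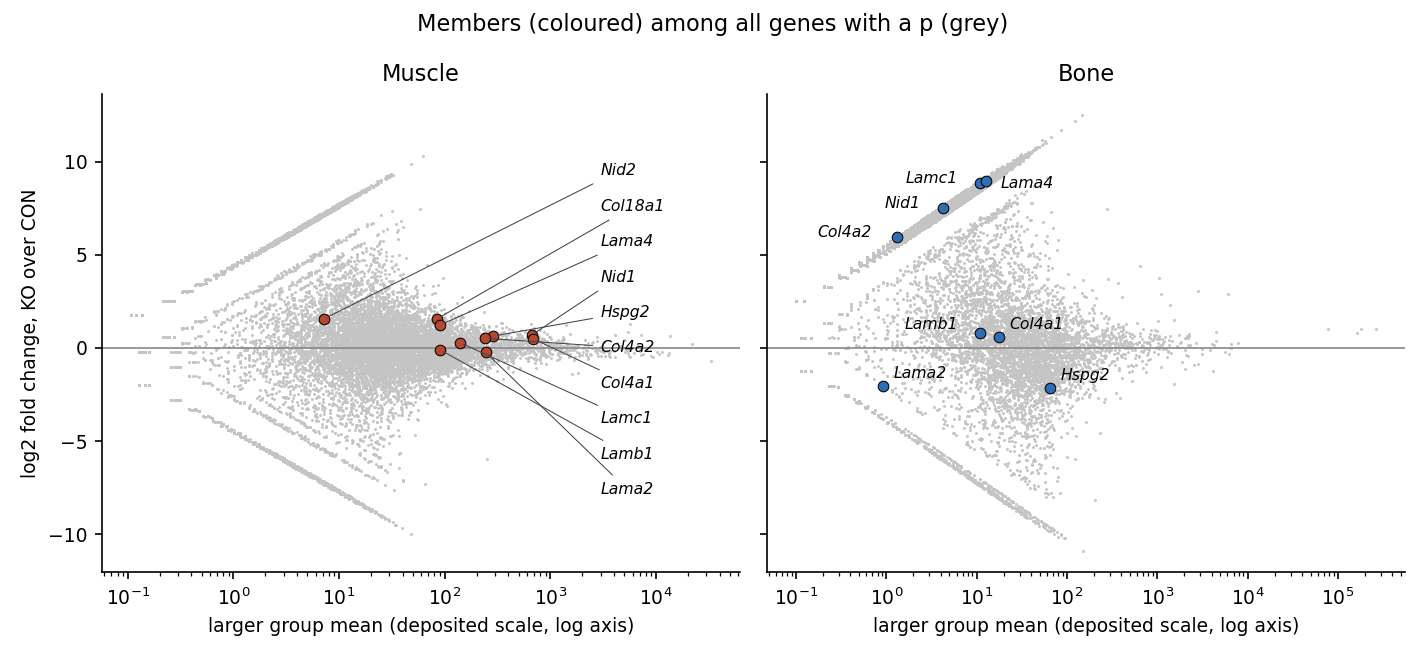
Log2 fold change of knockout over control (y axis) against the larger group mean (x axis, log scale) for all genes with a p (grey, 13158 in muscle and 10518 in bone), with the members coloured and named. In muscle the members lie within the cloud of genes of their level, and in bone Lama4, Lamc1, Nid1 and Col4a2 lie on the upper edge that holds 39.2% of the genes.

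The other bone members with a p had log2 fold changes between -2.16 and 0.80, with wide intervals. Col4a1 had 0.57 (p = 0.806) at a larger group mean of 17.6 in the authors' deposited table, with an interval from -3.96 to 5.10. Its partner Col4a2, which starts in the 78 bases printed in capitals above, had the 5.97 already given, against a near-equal pair in muscle, and the 2 bone intervals overlap. Lamb1 had 0.80 (p = 0.748) at 10.8 in the authors' deposited table, with an interval from -4.07 to 5.67. This overlaps the 2.41 to 15.32 of Lamc1, the gamma chain of the same trimer, and the difference of the 2 chains was not tested. Lama2 had -2.05 (p = 0.370, no FDR p) at 0.921 in the authors' deposited table. Hspg2, the one member above a group mean of 50 in bone, had -2.16 (p = 0.358, FDR p = 0.581) at 65.0 in the authors' deposited table, with an interval from -6.76 to 2.44.

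The precision differed widely between the tissues. The standard error implied by the deposited p ran from 0.32 to 2.17 over the 10 muscle members. The largest was that of Nid2, at a larger group mean of 7.19, and over the 9 with an FDR p the range was 0.32 to 0.86. In bone the standard error ran from 2.29 to 3.31 over the 8 members with a p, 2 of which had no FDR p. Whether the effects differ between tissues was not tested for any member. How the 2 tables were normalised is not stated, so levels are given side by side only.

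The remaining chains of the same families were mostly at low values. Of 6 other laminin chain genes, Lama1, Lama3 and Lama5 are listed at 0 in both tables, Lamb3 in muscle and Lamc3 in bone. None was called in either tissue. Lamc3, the gamma 3 chain gene, had 6.23 in muscle (p = 0.0600, no FDR p) at a larger group mean of 3.84 in the authors' deposited table. Lamb3, the beta chain of an epithelial laminin, had 6.10 in bone (p = 0.0599, FDR p = 0.137) at 1.82 in the authors' deposited table. Lamb2, the beta chain of the neuromuscular junction, had 0.27 in muscle (p = 0.568, larger group mean 221) and 1.32 for bone (p = 0.596, 10.1) by the authors' deposited tables.

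The other 4 collagen IV genes, whose chains form the trimers of kidney, lung and smooth muscle, are all listed at 0 in bone. In muscle all 4 had a positive value and none was called. Col4a6 had 5.72 (p = 0.0713) at a larger group mean of 2.72 and Col4a4 0.14 (p = 0.917) at 31.7 in the authors' deposited table. Group means ran from 2.72 to 31.7 over the 4, and 3 of the 4 had no FDR p. Of all muscle genes with a p, 53.5% were above 0.

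Other proteins of or next to the basement membrane were also not called. Of 26 such genes in muscle, 23 had a p, 4 stood at an unadjusted p under 0.05 above 0 and 1 below, and the median was 0.46, against 0.12 over all genes. The shares over all muscle genes with a p were 6.41% above 0 and 5.31% below. Sparc, which binds collagen IV and acts as its chaperone outside the cell, had 0.69 (p = 0.0110) at a larger group mean of 4109.5 in the authors' deposited table. Fbln2, the fibulin 2 gene, had 1.10 (p = 0.0119) and Col6a2, a collagen VI chain gene, had 0.67 (p = 0.0321) in the authors' deposited table. Frem1 had -7.34 (p = 0.0226) at 7.73 in the authors' deposited table. In bone 18 of the 26 had a p, with a median of 0.60 against 2.51 over all genes, and 3 stood at an unadjusted p under 0.05, all above 0, where 28.8% of all bone genes with a p stood. These were Tinagl1 (6.55), Hmcn2 (8.27) and Efemp1 (7.60) in the authors' deposited table, with larger group means of 24.6, 6.56 and 4.14. Sparc had -1.22 in bone (p = 0.0879) at 4172.2 in the authors' deposited table.

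Receptors for laminin and collagen were not called. In muscle 17 of 20 had a p, none under 0.05, with a median of 0.17. All muscle genes with a p had a median of 0.12, with 6.41% above 0 and 5.31% below at such a p. Dag1, the dystroglycan gene, had 0.57 (p = 0.231) and Sdc4, the syndecan 4 gene, 0.60 (p = 0.378) in the authors' deposited table. The epithelial integrin gene Itgb4 had -3.15 (p = 0.109) and the collagen receptor gene Ddr1 2.50 (p = 0.223) in the authors' deposited table, with group means of 12.9 and 15.7. In bone 14 had a p, and 7 of them stood at an unadjusted p under 0.05 above 0, with the other 7 below 0 and a median of 3.12. Over all bone genes with a p, 28.8% stood there and the median was 2.51, and the share was 51.0% at group means above 5 and up to 20. Among the 7 above 0 were the sarcoglycan genes Sgcb (6.89) and Sgce (9.12), the integrin gene Itga1 (8.62) and Ddr1 (8.10) in the authors' deposited table, where the larger group means of the 4 ran from 7.87 to 15.7.

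Genes that fold, modify or export these chains held the smallest muscle p of the 6 related lists. P3h3, a member of the collagen prolyl 3-hydroxylase family, had 2.73 (p = 0.000394, FDR p = 0.132) at a larger group mean of 146 in the authors' deposited table. Serpinh1, which encodes the collagen chaperone HSP47, had 0.65 (p = 0.0320, FDR p = 0.713) at 773 in the authors' deposited table. P3h1 had 2.60 (p = 0.0930) and P4ha2, a prolyl 4-hydroxylase gene, 2.36 (p = 0.166) in the authors' deposited table. Of 22 genes with a p, 19 were above 0, 2 stood at an unadjusted p under 0.05 and none was called, with a median of 0.42. Over all muscle genes with a p, 53.5% were above 0, 6.41% were so at such a p and the median was 0.12. In bone P3h3 had the opposite sign, -5.01 (p = 0.0355, FDR p = 0.103), at a larger group mean of 23.1 in the authors' deposited table. Its bone interval ran from -9.69 to -0.34, and the difference between the tissues was not tested. Of the 23 genes in bone, 4 stood at an unadjusted p under 0.05 above 0 and 1 below, with a median of 0.31. Over all bone genes with a p these were 28.8%, 4.2% and 2.51. The 4 were Mia3, the export factor for large collagens, Ext1, Plod3 and Pxdn, the peroxidase that cross-links collagen IV. Mia3 had 8.86 at a larger group mean of 12.1 and Ext1 8.39 at 8.95 in the authors' deposited table. Plod3 had 5.17 at 21.6 and Pxdn 7.11 at 2.93 in the authors' deposited table. Of bone genes with means above 5 and up to 20, 51.0% were above 0 at an unadjusted p under 0.05. The share was 50.5% at means above 1 and up to 5, and 14.7% above 20 and up to 50.

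Enzymes and inhibitors that remodel the sheet were not called. In muscle 2 of 17 stood at an unadjusted p under 0.05, both above 0, with a median of 0.09. The share over all muscle genes with a p was 6.41%, and their median was 0.12. Mmp14, a membrane protease, had 0.73 (p = 0.0421) and Ctsb, a lysosomal protease, 0.71 (p = 0.0425) in the authors' deposited table. Adamts5 had 0.64 (p = 0.127) and the gelatinase gene Mmp2 0.47 (p = 0.128) in the authors' deposited table. In bone 5 of 17 stood at an unadjusted p under 0.05 above 0 and 1 below, with a median of -0.14, against the same 28.8%, 4.2% and 2.51 over all bone genes. Mmp9 had 10.45 at a larger group mean of 37.5, Mmp2 9.01 at 11.0 and Bmp1 8.71 at 9.91 in the authors' deposited table. Plat, the tissue plasminogen activator gene, had -9.23 at 48.3, and these genes each had an FDR p of 0.0784 by the authors' deposited table. Of bone genes with means above 5 and up to 20, 51.0% were above 0 at an unadjusted p under 0.05. The share was 14.7% at means above 20 and up to 50.

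**Figure D4:**
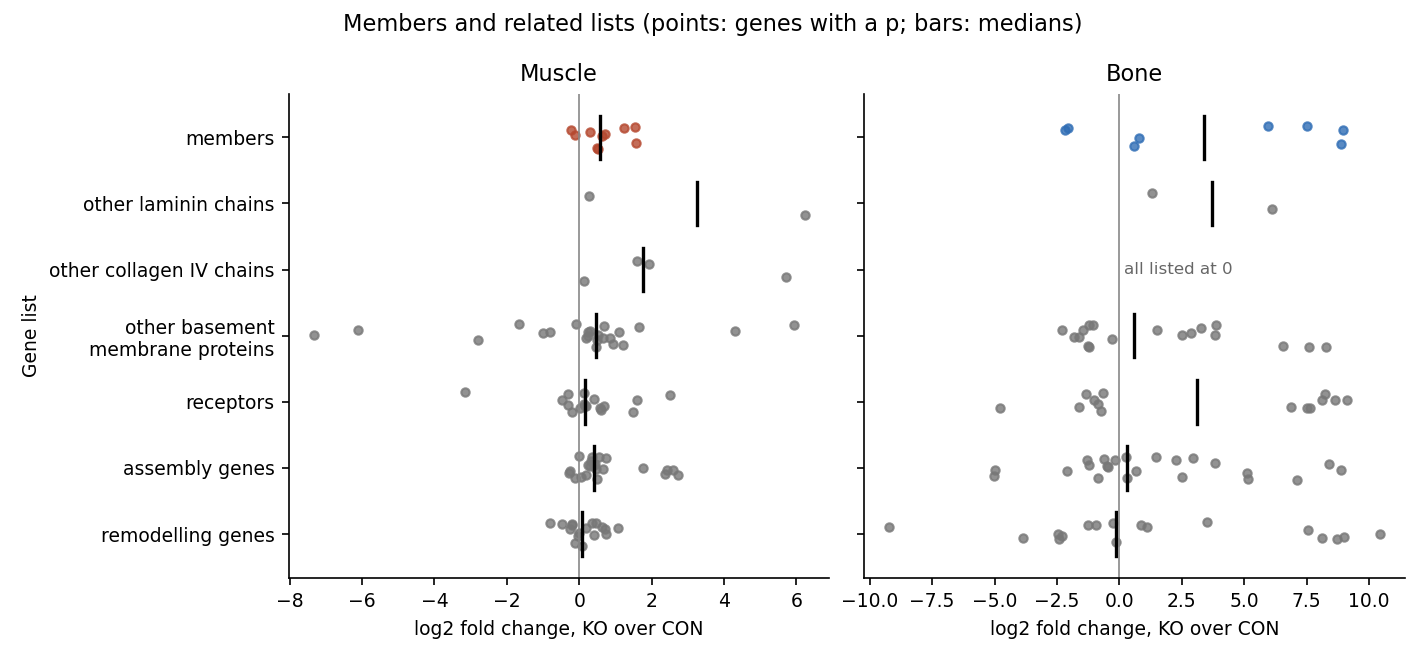
Log2 fold change of knockout over control (x axis) of the members and of 6 related lists (y axis) in muscle (left) and bone (right), with a point for each gene with a p and a bar for each list's median. The x axes differ. The members' median is 0.58 in muscle and 3.38 in bone, and the other collagen IV chains are all listed at 0 in bone.

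Over the 6 lists together, 85 of 96 genes had a p in muscle and 74 in bone, and none was called. The 105 other genes with the ontology term basement membrane, some of which are also on the related lists, gave a median of 0.28 in muscle over 79 genes with a p, with 55 above 0. All muscle genes with a p had a median of 0.12, with 53.5% above 0. In bone those 105 genes gave a median of -0.07 over 73 genes, with 36 above 0, against the 6 of 8 members and 69.7% of all bone genes above 0. None of them was called in either tissue.

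Other cells that make basement membrane were checked through their markers. Of 8 endothelial markers, 5 are listed at 0 in bone, Cdh5 and Kdr among them, and Pecam1, the gene of the sorted-out CD31, had a larger group mean of 0.304 there and 3.19 in muscle in the authors' deposited table. Muscle endothelial markers summed to 58.6 in larger group means, against 871 for 7 mural markers, which include Acta2 at 458, Pdgfrb at 162 and Myh11 at 120. The mural markers Rgs5, Notch3, Kcnj8 and Cspg4 lay between 23.9 and 37.1, and the highest endothelial marker, Tek, at 22.0. In muscle 3 of the 8 endothelial markers were above 0 (median -0.24). Kdr had 7.88 (p = 0.0130) at a larger group mean of 11.9 and Egfl7 -8.46 (p = 0.00643) at 16.8 in the authors' deposited table. Neither had an FDR p. Mural markers had a median log2 fold change of 0.40 in muscle, with 0 of 7 at an unadjusted p under 0.05. In bone the 6 mural markers with a p went both ways, 3 above 0 and 3 below (median -2.06). Pdgfrb had 8.27 (p = 0.00162, FDR p = 0.0784) at a larger group mean of 33.8 in the authors' deposited table for bone. Rgs5 had -7.57 (p = 0.0195, FDR p = 0.084) at 15.5 in the authors' deposited table for bone. Kcnj8 had -8.01 (p = 0.0136, FDR p = 0.0799) at 16.6 in the authors' deposited table for bone. No mural marker was called there. Over all bone genes with a p, 69.7% were above 0, with 28.8% above 0 and 4.2% below at an unadjusted p under 0.05. Of 5 muscle cell markers in muscle, Pax7 and Myf5 are listed at 0 and the other 3 were below 0 (median -1.77). Myod1 had -7.75 (p = 0.0163, no FDR p) at a larger group mean of 10.3 in the authors' deposited table. Ckm was at -1.77 and Acta1 at -0.52 by the authors' deposited table. In bone 4 of the 5 are listed at 0. All 4 Schwann cell markers were below 0 in muscle (median -1.11), and 3 of the 4 are listed at 0 in bone. All 3 fat cell markers were also below 0 in muscle (median -4.91), at larger group means of at most 3.83. In bone Adipoq was at 128, but Plin1 was at 0.736 and Cidec is listed at 0 by the authors' deposited table. Over all muscle genes with a p, 53.5% were above 0, with 6.41% above 0 and 5.31% below at an unadjusted p under 0.05.

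Markers of the sorted type were measured in both tables. Of 7 mesenchymal markers all had an FDR p in both tables, and Pdgfra had a larger group mean of 494 for muscle and 8.60 for bone in the authors' deposited tables. The mesenchymal markers had a median log2 fold change of 0.51 in muscle, close to the members' 0.58, with 3 of 7 at an unadjusted p under 0.05, all above 0. Of all muscle genes with a p, 6.41% stood there, 53.5% were above 0 and the median was 0.12. In bone the mesenchymal markers had a median of 1.06, with 5 of 7 above 0. At an unadjusted p under 0.05 stood 1, Pi16, with 7.70 (p = 0.0175, FDR p = 0.0822) at 4.95 in the authors' deposited table. The 2 below 0 had the highest means, Col1a1 with -1.07 at 688 and Dcn with -0.69 at 674 in the authors' deposited table. In bone the 5 red cell markers summed to 686021.7 in larger group means, against 123 for the 10 members, 1447.7 for the mesenchymal markers and 1171400.9 for all bone genes. All 5 red cell markers were above 0 in bone (median 0.99), none at an unadjusted p under 0.05, with Hba-a2 at 1.03 (p = 0.0681) in the authors' deposited table. Of 5 leukocyte markers in bone, 4 stood at an unadjusted p under 0.05 and all 5 were above 0 (median 3.06), against 28.8% of all bone genes above 0 at such a p, 69.7% above 0 at any p and a median of 2.51. In muscle all 5 red cell markers were below 0 (median -0.99), 2 of them at an unadjusted p under 0.05. These were Alas2 at -5.64 (p = 0.000409, FDR p = 0.132, larger group mean 37.7) and Hba-a2 at -1.41 (p = 0.0117) in the authors' deposited table. Of 5 leukocyte markers in muscle, 4 were below 0 (median -0.91). Among these S100a8 alone stood at such a p, with -5.46 (p = 0.0163, no FDR p) at 17.3 in the authors' deposited table. The share of all muscle genes there was 5.31%. The part of these cells in the members' values was not tested.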

How the data were processed

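RNA of sorted PDGFRα+ cells was extracted with a column kit and 3' mRNA libraries were made with the QuantSeq kit, per the labels' protocols. No source used here gives the aligner, counting tool or statistical test. GRCm38 and mm10 are the builds in the submitters' processing notes, but the positions in the tables match GRCm38 for 0 of the 10 members, so coordinates come from GENCODE M21 on GRCm38, matched by Ensembl ID.

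The log2 fold changes, of knockout over control, were computed by the authors, per the file headers. Each p-value, raw, FDR or Bonferroni, was deposited by the authors. The larger group mean, a score in the deposited tables, is the higher of the knockout and control means per gene, per the file headers, with no unit named. It summed to 1150351.1 in muscle and 1171400.9 in bone. The 48 columns of per-library values match no label and were not used, so depth per sample is unknown here, and the planned edgeR test was not run.

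Calls rest on an FDR p under 0.05. A Benjamini-Hochberg adjustment recomputed over the genes with an FDR p differed from the deposited one by at most 0.000995 in muscle and 0.000142 in bone, and was tested on simulated data. Standard errors are the fold change divided by the normal quantile of its p. The members and the 14 gene lists were chosen with earlier results of these data known. By the rule for named genes, every member is named, with up to 4 genes of smallest p per related list and tissue and the markers of highest group mean. Gm15418, Gm48084, Slc19a1 and Rtraf, named for their position, and P3h3 in bone and some markers, named after their values were seen, fall outside it. 1 gene was left out of the lists and is not reported here. Alternatives were another adjustment, threshold and minimum group mean. Python 3.11.15, pandas 2.3.3, numpy 2.4.6 and scipy 1.17.1 were used.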

Additional observations from a re-analysis of the deposited data

How the results depend on the processing

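No member and no gene of the 6 related lists was called in muscle under any of the 4 alternatives run: Benjamini-Hochberg over all genes with a p, the authors' Bonferroni p, an FDR p under 0.1, and genes with a group mean of at least 50. In bone the same held except at an FDR p under 0.1, where 3 members (Lama4, Lamc1 and Nid1) and 20 genes of the related lists passed. At that threshold 32.2% of all bone genes with an FDR p passed, 2751 genes against 3 at 0.05, so the 3 of 6 members are to be read against that share. Adjusted over all bone genes with a p, the values were 0.0966 for Lama4 and Lamc1 and 0.106 for Nid1. With a group mean of at least 50, Hspg2 alone could be tested in bone. No paired analysis was possible because the library columns carry no replicate numbers that match the labels. For the same reason DESeq2, a filter on low counts and leaving out each replicate were not run. Low bone levels limit what can be read: the implied standard errors reach 3.31 on the log2 scale.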
